A study of Homo sapiens with 6 samples.

Results

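The WNT and Notch pathway genes described here are the rows of the value table whose symbols begin with WNT, FZD, DVL, NOTCH or HEY, begin with LRP, TCF, DLL, JAG or HES before a digit, or are CTNNB1, LEF1, APC, AXIN1, AXIN2 or CREBBP. This rule found 11 of 770 genes, namely the ligands WNT5A and WNT5B, the cytoplasmic WNT components APC and CTNNB1, the coactivator CREBBP, the symbols TCF3, TCF4 and TCF20, the Notch ligands JAG1 and DLL4, and the receptor NOTCH1. Other WNT or Notch receptors, T-cell factor/LEF1 proteins and HES or HEY repressors were not analysed here. The comparison was between untreated HCT116 WT cells (3 samples), a human colorectal carcinoma line, and untreated HCT116 p21-/- cells (3 samples), an isogenic line in which CDKN1A, encoding the cell cycle inhibitor p21, was disrupted. RNA was counted on the NanoString PanCancer Progression Panel, in which a probe pair captures each transcript and a fluorescent barcode is counted without amplification. The methods describe the replicates as repeated harvests of these lines and name DMEM for the p21-/- cells and RPMI for the WT cells, while the sample labels name RPMI for both, so genotype, the history of the knockout line and possibly the medium cannot be told apart.

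In canonical WNT signalling, a WNT ligand that binds a Frizzled receptor stops a cytoplasmic complex built on APC from marking β-catenin (CTNNB1) for degradation, and β-catenin then activates genes with LEF/TCF proteins and coactivators such as CREBBP. In Notch signalling, a ligand on one cell (JAG1, DLL4) binds a receptor on its neighbour (NOTCH1), proteases of the ADAM family and γ-secretase release the intracellular domain of the receptor, and this domain joins the DNA-binding protein RBPJ in the nucleus. Both pathways maintain the proliferating crypt cells of the colon, and HCT116 cells carry a stabilizing mutation of CTNNB1.

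Values are normalized counts, the barcode counts after the authors' scaling between samples. Low values had been replaced by a background floor, which lay between 25.7 and 34.9 in the 6 samples, and barcode totals ranged from 867421 to 1335466. Differences are log2 fold changes of p21-/- over WT on the log2(value + 1) scale, which understates changes of low genes, with adjusted p-values from limma over 770 genes. With 3 samples in each line, the smallest two-sided p of an exact permutation test on 1 gene is 0.1. CDKN1A, the disrupted gene, lay between 388 and 460 normalized counts in p21-/- samples, whereas WT samples had 4133 to 5659. Of the epithelial markers, 10 of 10 measured were above the floor in all WT samples, with summed levels (floored values counted as 0) of 37651 to 41953 normalized counts, and 9 of 10 in all p21-/- samples, with 17838 to 18767. Of these markers 8 were called lower, while EPCAM was called higher (5692 to 6612 on average, limma adjusted p = 0.0444) and CLDN3 did not pass. The summed mesenchymal markers, of which CDH2 and ZEB2 were at the floor in every sample, reached 599 to 835 normalized counts in WT cells, compared with 34725 to 36552 in p21-/- cells. Most of that sum came from VIM, with a mean of 29992 in p21-/- cells, and SPARC, with 4537. TWIST1 of the same list was lower in p21-/- cells, with a mean of 45.5 against 92.5 in WT cells (limma adjusted p = 0.0001005), and SNAI1 did not pass the threshold (log2 fold change -0.20, adjusted p = 0.392). Of 4 endothelial markers, KDR, TEK and TIE1 were at the floor in every sample, and the sum of the list did not exceed 41.0 in any sample. Of 4 leukocyte markers, PTPRC and ITGAM were at the floor in every sample, and the list summed to 105 to 203 normalized counts in WT cells, all from PRF1, compared with 52.2 to 91.7 in p21-/- cells. Summed fibroblast markers, of which LUM and FAP were at the floor throughout, had 193 to 241 normalized counts in WT cells and 144 to 233 in p21-/- cells. COL1A1 made up the whole WT sum and was called lower in p21-/- cells, whereas PDGFRB was called higher. The part of the epithelial and mesenchymal difference in the changes of WNT and Notch genes was not tested. Of the 8 WNT and Notch genes measured in every WT sample, 5 had their lowest WT value in replicate 1, the sample with the lowest barcode total, as did 59.0% of the 446 genes above the floor throughout.

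WNT5A, CREBBP, NOTCH1, APC and TCF3 were higher in HCT116 p21-/- cells, whereas JAG1, DLL4 and TCF20 were lower. This makes 8 of 11 genes called at an adjusted p below 0.05 in limma, or 72.7%, against a background of 47.8% of all 770 genes. Of the 8 members that no sample had at the floor 7 were called, or 87.5%, against 70.2% of 446 such genes, a description from which nothing is read. Calls to the higher side were 5 of 11 against 21.8% of all genes, and calls to the lower side 3 of 11 against 26.0%. The median log2 fold change of the 11 genes was 0.18, which is the value of CTNNB1. The median over all genes, -0.12, is the value of the 167 genes at the floor in every sample and holds no measured change, so the medians were not compared. Over the 446 genes above the floor throughout, the median was -0.05. WNT5B and TCF4 were at the floor in all 6 samples, so that no comparison of them was possible, and CTNNB1 did not pass the threshold. Values of the lines did not overlap for 7 of the 11 genes, against 52.2% of all genes. Of these, 5 were higher (25.5% of all genes) and 2 lower (26.8%).

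**Figure D1:**
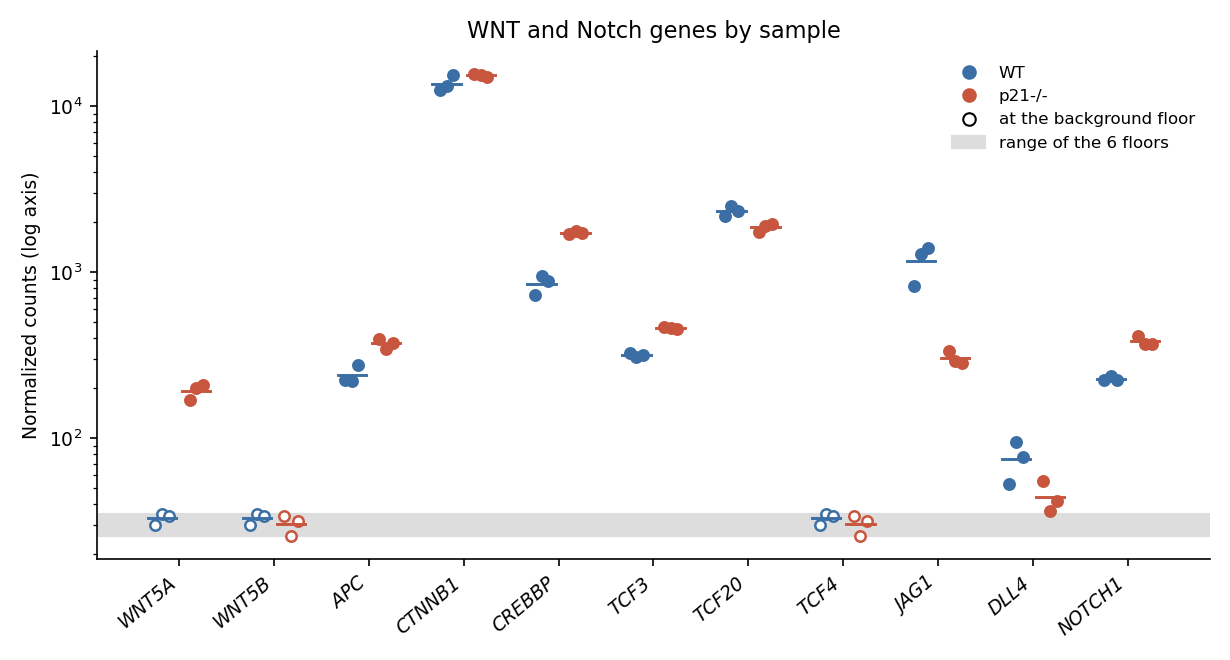
Normalized counts of the 11 WNT and Notch genes (log axis) in 3 WT (blue) and 3 p21-/- (red) samples, with horizontal lines at the means, open circles for values at the background floor and a grey band for the range of the 6 floors. WNT5A leaves the floor in p21-/- samples, JAG1 falls from between 820 and 1401 to between 282 and 332, and CTNNB1 overlaps between the lines.

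**Figure D2:**
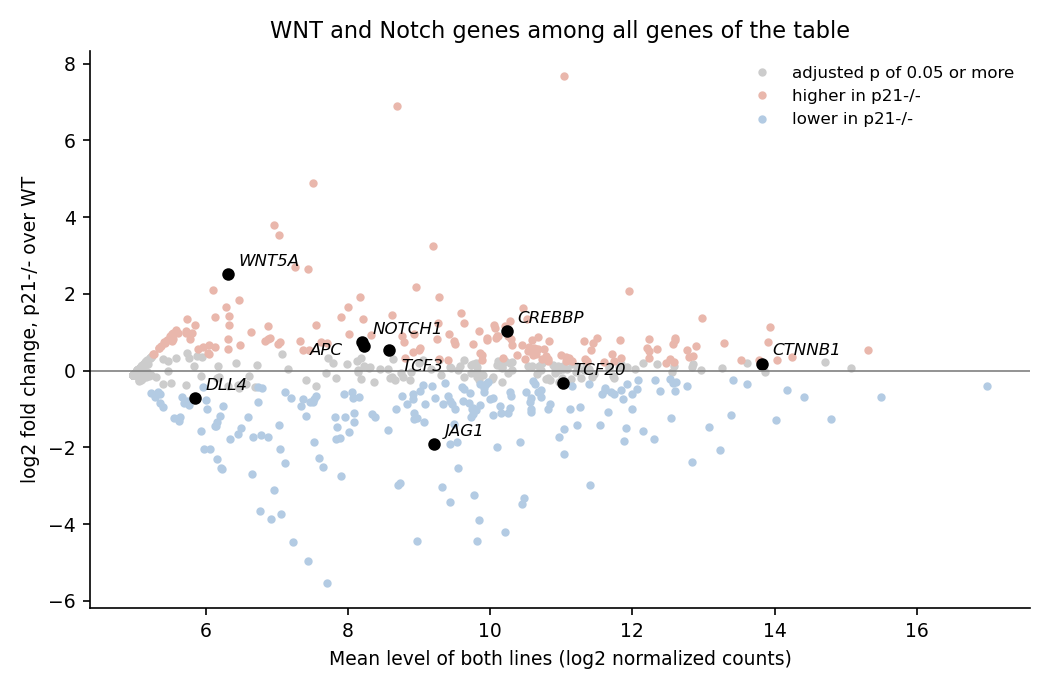
Log2 fold change of p21-/- over WT against the mean level of both lines (log2 normalized counts) for 770 genes, with the 9 WNT and Notch genes above the floor in black and calls at an adjusted p below 0.05 in light red and light blue. WNT5A at 2.51 and JAG1 at -1.92 lie toward the edges of the cloud, and CTNNB1 at 0.18 lies near 0 among the highest expressed genes.

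WNT5A, a ligand that mainly signals without β-catenin, showed the largest rise of the 11 genes. It was floored in each WT sample, at 29.8, 34.9 and 33.8, and p21-/- replicates 1, 2 and 3 had 169, 199 and 208 normalized counts. These correspond to 157, 219 and 235 barcode counts. All p21-/- samples were far above all WT samples. In such bulk RNA, more cells with the transcript and more transcript per cell cannot be told apart. Since a floored value is only a limit, the change is given as at least 4.65-fold higher (geometric mean of the p21-/- values over that of the WT limits, adjusted p = 3.33e-09 from limma). Its fitted log2 fold change of 2.51 has no fixed meaning, because it became 2.19 with floored values at their upper limit and 6.34 with the floor subtracted. The related ligand WNT5B stayed at the floor in every sample of both lines, with values between 25.7 and 34.9, where a level below the floor cannot be distinguished from absence.

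APC, the scaffold of the complex that degrades β-catenin, had WT values of 223, 221 and 276 normalized counts, and p21-/- values of 396, 344 and 375. The lowest p21-/- value lay above the highest WT value, and the log2 fold change was 0.63 (SE 0.14, limma adjusted p = 0.00123). For CTNNB1, β-catenin itself, WT replicates gave 12455, 13134 and 15365 normalized counts, and p21-/- replicates gave 15624, 15464 and 15044. Its ranges overlapped, because WT replicate 3 exceeded p21-/- replicate 3. The log2 fold change of CTNNB1 was 0.18, with a 95% interval from -0.02 to 0.37 (adjusted p = 0.136 from limma), so a rise of up to 0.37 is not excluded by these samples. Without WT replicate 3 its log2 fold change was 0.27 (adjusted p = 0.0169).

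CREBBP, an acetyltransferase that β-catenin and many transcription factors recruit, was 2.03-fold higher in p21-/- cells. Its WT values of 731, 946 and 878 normalized counts were all exceeded by the p21-/- values of 1686, 1755 and 1724. Its log2 fold change was 1.02 (SE 0.10, limma adjusted p = 4.49e-07), position 42 among the 168 genes called higher. The paralog EP300, which was picked for this comparison after its values were seen, measured 948, 1145 and 1279 normalized counts in WT cells against 954, 998 and 1030 in the knockout, with overlapping ranges and a log2 fold change of -0.17 (adjusted p = 0.271 from limma). That value rested on single samples, since it was -0.28 with a call without WT replicate 1 (adjusted p = 0.00402) and -0.069 without WT replicate 3. Scaled to housekeeping candidates it was -0.55 (adjusted p = 0.000368). As a description, the log2 ratio of CREBBP to EP300 within a sample, where any factor shared by all genes cancels, was -0.40 ± 0.14 in WT and 0.79 ± 0.04 in p21-/- cells (SD, n = 3 each).

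The 3 genes named TCF behaved differently, and none of them is a T-cell factor of the WNT pathway: TCF3 (E2A) and TCF4 (E2-2) encode basic helix-loop-helix E proteins, and TCF20 a nuclear coregulator. TCF3 stood at 325, 306 and 316 normalized counts in WT cells against 467, 458 and 452 in p21-/- cells, the tightest replicates of the 9 genes above the floor, with a log2 fold change of 0.54 (SE 0.12, limma adjusted p = 0.00113). TCF20 went the other way, with WT values of 2162, 2501 and 2347 normalized counts and p21-/- values of 1750, 1891 and 1933. Neither gene had overlapping ranges. The change of TCF20 was small, with a log2 fold change of -0.33 (SE 0.09, limma adjusted p = 0.00535), and under median scaling it no longer passed (-0.12, adjusted p = 0.252). TCF4 was at the floor throughout.

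JAG1, a Notch ligand, showed the largest fall of the 11 genes. WT replicates 1, 2 and 3 gave 820, 1292 and 1401 normalized counts, and the p21-/- replicates 332, 292 and 282. Even the low WT replicate 1 was far above every p21-/- sample. The log2 fold change was -1.92 (SE 0.17, limma adjusted p = 6.51e-08), a 3.77-fold lower level in p21-/- cells, at position 36 among the 200 genes called lower. The spread of JAG1 in WT samples, 57.5 times the variance of counting error by chi-square per degree of freedom, was much larger than in p21-/- samples, at 2.31 times. Leaving out WT replicate 1 gave -2.15, the largest change among the 6 fits that each left out a sample, and the smallest was -1.77.

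DLL4, the other Notch ligand, was close to the floor. Its WT values were 52.7, 94.4 and 77.2 normalized counts and its p21-/- values 55.0, 36.4 and 41.6, from 35 to 84 barcode counts in each. Counting error alone gives WT replicate 1 an exact Poisson 95% interval of 36.7 to 73.3 and p21-/- replicate 1 one of 41.0 to 72.3. The ranges overlapped, as WT replicate 1 was below p21-/- replicate 1. A log2 fold change of -0.72 (SE 0.22, limma adjusted p = 0.0109) passed the threshold. The call was lost with an ordinary linear model at the same -0.72 (adjusted p = 0.145), with quantile normalization at -0.70 (0.0535) and with the floor subtracted at -1.49 (0.0705).

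NOTCH1, the receptor of both ligands, was higher in p21-/- cells. WT replicates had 223, 237 and 222 normalized counts, and p21-/- replicates had 411, 370 and 367. No values overlapped, and the replicates of NOTCH1 differed by about their counting error (chi-square per degree of freedom 0.259 in WT and 1.57 in p21-/- samples). Its log2 fold change was 0.75 (SE 0.13, 1.68-fold, limma adjusted p = 0.000152).

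Any factor shared by all genes of a sample cancels in the ratio of NOTCH1 to its ligands within that sample. For NOTCH1 over JAG1, the log2 ratio was -1.88, -2.45 and -2.66 in WT cells and turned positive in p21-/- cells, at 0.31, 0.34 and 0.38, a 6.36-fold change of the ratio. The log2 ratio of NOTCH1 over DLL4 was higher by 1.48 in p21-/- cells, and that of JAG1 over DLL4 lower by 1.18 (a difference of -1.18). Relative to CTNNB1, the log2 ratios of CREBBP and APC rose by 0.85 and 0.46, and TCF3 rose by 0.87 relative to TCF20. In each of these 6 ratios the lines did not overlap, and the exact permutation p was 0.1 (0.107 after Benjamini-Hochberg adjustment over 16 ratios computed). For NOTCH1 over JAG1 and TCF3 over TCF20 the lack of overlap followed from the single genes, whose lines lay apart in opposite directions. No share over other gene pairs was computed. Of the 16, only that of APC to CREBBP overlapped between the lines, with a difference of -0.39 (exact p = 0.2). Quantile normalization is not such a factor and moved the rise of APC over CTNNB1 from 0.46 to 0.79 and that of NOTCH1 over DLL4 to 1.79, with no change of direction in the 6 ratios. Probes differ in efficiency, so the level of such a ratio has no meaning of its own, and only its change between the lines was read.

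**Figure D3:**
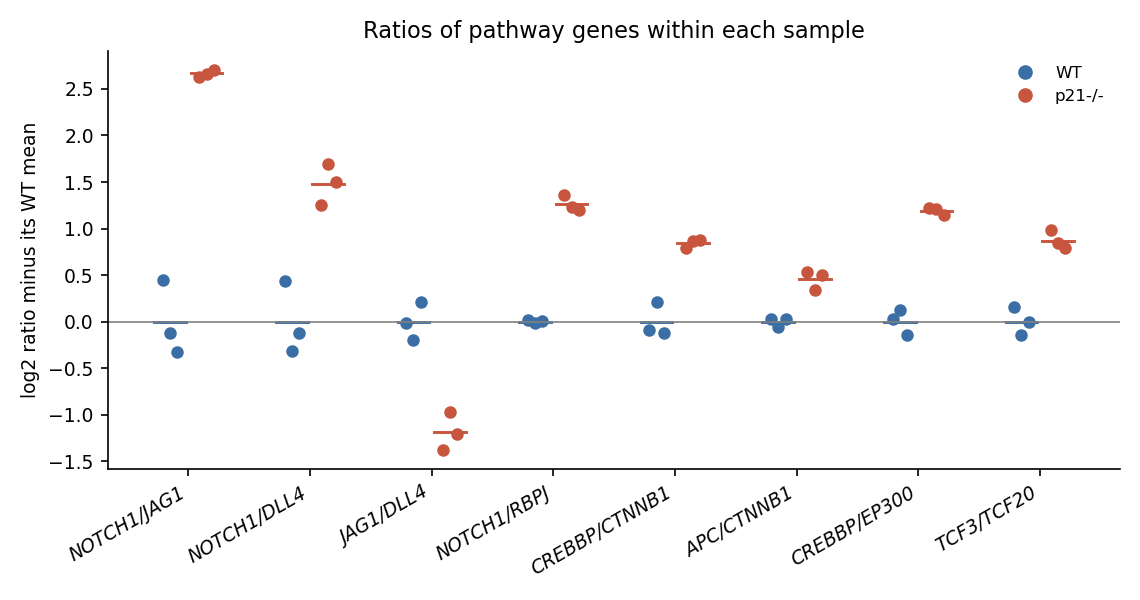
Log2 ratios of gene pairs within each sample, minus the WT mean of that ratio, for 3 WT (blue) and 3 p21-/- (red) samples with lines at the means. For the 8 pairs drawn, of 16 computed, the lines do not overlap, and NOTCH1 over JAG1 changes most, by 2.67.

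The calls of WNT5A, CREBBP, NOTCH1 and JAG1 did not depend on the scaling between samples, whereas those of the other 5 genes above the floor did. Besides the authors' scaling, 5 others were computed, namely quantile normalization, median scaling, the geometric mean of 30 housekeeping candidates, a trimmed mean of M values, and the spiked-in positive controls. Over the 446 genes above the floor throughout, they moved the median log2 fold change from -0.05 to 0.13 (quantile), 0.16 (median scaling), -0.43 (housekeeping candidates), 0.04 (trimmed mean) and 0.95 (positive controls). In the authors' values, 19 of the 30 housekeeping candidates were called higher and 3 lower, against 21.8% and 26.0% of all genes. The median log2 fold change of these candidates was 0.38. WNT5A, CREBBP and NOTCH1 were called higher and JAG1 lower under all 5. The log2 fold changes ranged from 0.64 to 2.02 for CREBBP, from 0.36 to 1.74 for NOTCH1 and from -2.30 to -0.92 for JAG1. APC and TCF3 also stayed above 0 under all 5 but were called higher under 4, with log2 fold changes of 0.25 and 0.15 for the housekeeping candidates that did not pass. DLL4 kept its call under 3 and TCF20 under 2, and both turned positive with the positive controls. There TCF20 was called higher (0.67, limma adjusted p = 0.00348), while DLL4 did not pass (0.26, adjusted p = 0.153). CTNNB1 was called higher under 2 of the 5 scalings and lower with the housekeeping candidates, at -0.21.

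**Figure D4:**
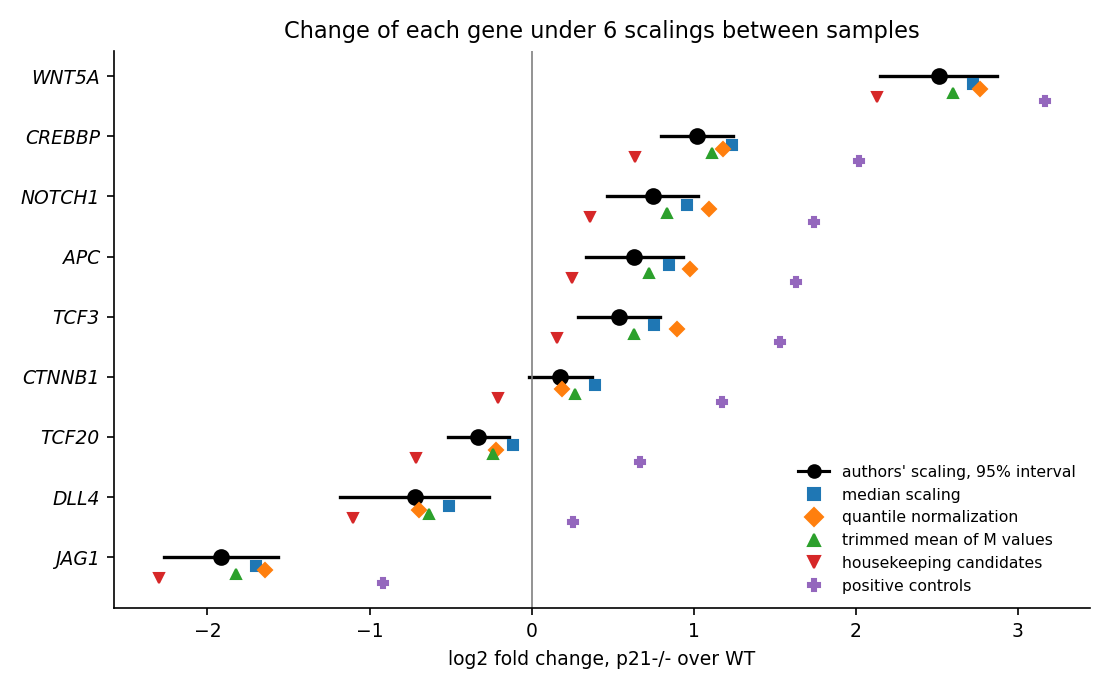
Log2 fold change of p21-/- over WT for the 9 genes measured above the floor, with the authors' scaling (black, 95% interval from limma) and 5 other scalings (coloured symbols). WNT5A, CREBBP, NOTCH1, APC and TCF3 stay above 0 and JAG1 below 0 under every scaling shown, while CTNNB1, TCF20 and DLL4 cross 0.

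The sequence before the start sites of the 4 genes that kept their call under every scaling is shown because transcription factors of these pathways act there. Each entry is the 250 bases upstream of a RefSeq start (GRCh38.p14), 5′ to 3′ on the strand of the gene, and WNT5A is given for both of its listed starts and CREBBP for the first of its pair. Capitals mark 3 motifs searched on both strands: the E-box CACCTG, which SNAI2, ZEB1 and E proteins can bind, the LEF/TCF motifs CTTTGAA and CTTTGAT, and the RBPJ core TGGGAA.
WNT5A, first start, chr3:55487307-55487556, minus strand: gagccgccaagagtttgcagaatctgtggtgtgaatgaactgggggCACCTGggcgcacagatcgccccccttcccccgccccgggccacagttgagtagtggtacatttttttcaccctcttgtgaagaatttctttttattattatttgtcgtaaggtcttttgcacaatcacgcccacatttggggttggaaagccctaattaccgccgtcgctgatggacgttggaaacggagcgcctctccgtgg
WNT5A, second start, chr3:55481399-55481648, minus strand: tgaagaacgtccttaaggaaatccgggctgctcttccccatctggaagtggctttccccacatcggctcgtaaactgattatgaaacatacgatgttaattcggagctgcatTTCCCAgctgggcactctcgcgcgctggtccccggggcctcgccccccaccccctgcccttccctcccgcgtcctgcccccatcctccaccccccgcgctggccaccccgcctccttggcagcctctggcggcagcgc
CREBBP, first start, chr16:3880714-3880963, minus strand: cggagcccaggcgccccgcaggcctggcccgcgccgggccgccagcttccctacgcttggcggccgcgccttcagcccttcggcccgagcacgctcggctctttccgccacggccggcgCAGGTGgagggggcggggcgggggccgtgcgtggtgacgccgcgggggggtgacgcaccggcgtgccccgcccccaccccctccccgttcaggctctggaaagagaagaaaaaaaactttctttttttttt
NOTCH1, chr9:136546049-136546298, minus strand: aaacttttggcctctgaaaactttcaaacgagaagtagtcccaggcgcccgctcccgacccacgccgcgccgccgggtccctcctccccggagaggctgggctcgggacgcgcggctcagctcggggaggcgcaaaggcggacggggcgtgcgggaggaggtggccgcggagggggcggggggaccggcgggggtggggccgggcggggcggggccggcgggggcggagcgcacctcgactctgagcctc
JAG1, chr20:10674000-10674249, minus strand: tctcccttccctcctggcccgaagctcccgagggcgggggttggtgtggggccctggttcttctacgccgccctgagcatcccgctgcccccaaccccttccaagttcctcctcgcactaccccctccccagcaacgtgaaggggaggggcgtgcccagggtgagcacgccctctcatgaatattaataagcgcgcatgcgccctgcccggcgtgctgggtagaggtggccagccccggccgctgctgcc
The E-box occurred at the first start of WNT5A, 204 bases before it, and at the first start of CREBBP, 131 bases before it. The window of the second CREBBP start (chr16:3880121-3880370) held none of the 3 motifs. Over the 15 windows of 10 members searched, 3 held the E-box, the third lying 13 bases before the second start of TCF20, and 3 held the RBPJ core, of which one lay 30 bases before the first start of APC and another 44 bases before the second start of WNT5B. None of them held a LEF/TCF motif. Of 35116 promoter windows of this length in the table, 17.5% held the E-box, 5.94% a LEF/TCF motif and 20.8% the RBPJ core. The RBPJ core lay 138 bases before the second start of WNT5A, and none of the 3 motifs was found in the windows of NOTCH1 and JAG1. A match is a description of these letters, and binding was not measured.

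Other genes of the pathways were read from lists written from general knowledge, with earlier results of these data known. The shares called in these lists are therefore not independent of these data. Of 73 other WNT pathway genes 11 were measured, of which 1 rose, 3 fell and 4, among them the secreted antagonists SFRP1 and SFRP2, were at the floor in every sample. The share called was 36.4%, against 47.8% of all genes. These counts turned with the scaling, to 3 higher and 1 lower under median scaling, 10 higher and none lower with the positive controls, and 1 higher and 10 lower with the housekeeping candidates, where the floored genes move with the rest. NFATC2, a calcium-dependent transcription factor used in WNT/Ca2+ signalling, fell from 378, 436 and 333 to 156, 154 and 180 normalized counts, with a log2 fold change of -1.22 (adjusted p = 3.78e-06 from limma), and did not pass with the positive controls (-0.22, adjusted p = 0.486). RHOA, a small GTPase of the planar polarity branch, had a log2 fold change of -0.29 (adjusted p = 0.00583). Its call was lost under median scaling (-0.07, adjusted p = 0.552), with the trimmed mean of M values (0.255) and without p21-/- replicate 3 (0.0513), and the direction turned with the positive controls. The gene of this list that rose, CD24, encodes a surface glycoprotein and is not a core component of WNT signalling. CD24 went from 604, 771 and 822 to 1436, 1636 and 1636 normalized counts. Its log2 fold change was 1.11 (adjusted p = 6.88e-07 from limma), and it kept its call under all 5 scalings. The median of the list was the value of its floored genes, so it is not given.

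The list of WNT target genes held 12 measured genes, of which 3 rose and 6 fell, or 75.0% called against 47.8% of all genes. None was at the floor throughout, and of genes that no sample had at the floor 70.2% were called. There were 4 higher and 5 lower under median scaling, 2 and 8 with the housekeeping candidates, and 7 and 4 with the positive controls. Members named by size of change moved in both directions. PROM1, which encodes the stem cell antigen CD133, fell from 805, 1038 and 1117 normalized counts in WT cells to the floor of the p21-/- samples, at least 31.6-fold lower. ID2, an inhibitor of E proteins such as TCF3, fell from 3977, 4172 and 4500 to 220, 177 and 182 normalized counts (log2 fold change -4.44, limma adjusted p = 1.55e-14). CXCR4, a chemokine receptor and the gene of the study's 13-gene WNT set that was measured here, had WT values of 63.3, 43.8 and 33.8 normalized counts, the last of these a floor value, and p21-/- values of 186, 147 and 168 (log2 fold change 1.85, adjusted p = 1.84e-06 from limma). With the floor subtracted the log2 fold change of CXCR4 was 3.96 (adjusted p = 0.0431). The median of the 12 targets was -0.37, and it turned to 0.62 with the positive controls.

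Of the Notch machinery, 4 genes were measured, of which none rose and 3 fell, against 26.0% of all genes called lower. All 4 were above the floor in every sample, where 70.2% of genes were called in either direction. With the positive controls 2 were called higher and none lower. ADAM17, a metalloprotease that can cleave Notch receptors, had WT values of 1682, 2330 and 1904 normalized counts and p21-/- values of 1120, 1216 and 1218 (log2 fold change -0.72, adjusted p = 4.11e-05 from limma). RBPJ, the DNA-binding partner of the Notch intracellular domain, fell from 4264, 4638 and 4275 to 3082, 3036 and 3076 normalized counts, with a log2 fold change of -0.52 (adjusted p = 4e-05). EGFL7, a secreted Notch-binding protein, had a log2 fold change of -0.52 (adjusted p = 0.00335). It did not pass with quantile normalization (-0.22, adjusted p = 0.236), the trimmed mean of M values (0.0648) or an ordinary linear model (0.0575). For ADAM17, RBPJ and EGFL7 the lack of overlap between the lines was a condition for naming them. With the positive controls all 3 turned positive. The log2 ratio of NOTCH1 to RBPJ within a sample rose by 1.27, without overlap, which followed from the opposite changes of the 2 genes.

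Among 7 measured genes of the Notch target list, 2 rose and 3 fell, against 21.8% and 26.0% of all genes, and the median log2 fold change of -0.03 turned with the scaling. It was 0.19 under median scaling (3 higher, 2 lower), 0.27 with quantile normalization (4 higher, 2 lower), 0.97 with the positive controls (5 higher, 1 lower) and -0.41 with the housekeeping candidates (1 higher, 5 lower). SNAI2, a repressor that drives epithelial-mesenchymal transition, left the floor in the p21-/- samples, at 425, 429 and 576 normalized counts, at least 11.5-fold higher than the WT limits. ID1, another inhibitor of E proteins, had WT values of 27662, 22729 and 27756 and p21-/- values of 11783, 10099 and 10062 normalized counts, with a log2 fold change of -1.29 (adjusted p = 2.07e-08 from limma), which did not pass with the positive controls (-0.29, adjusted p = 0.203). CDKN1A, with -3.48, is among the 3 that fell and is the disrupted gene, so its fall is no reading of the pathway.

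**Figure D5:**
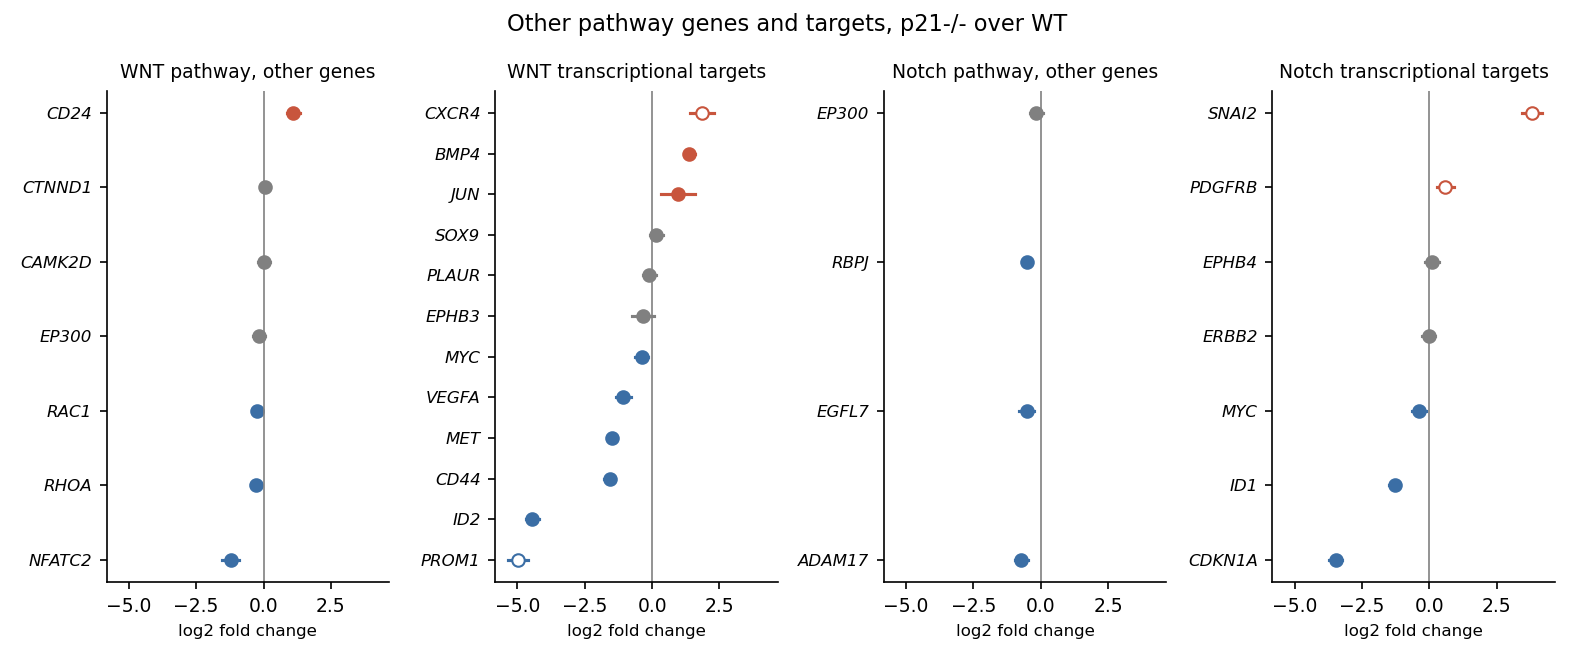
Log2 fold changes of p21-/- over WT with 95% intervals from limma for the measured genes of 4 lists, without genes floored in every sample, in red for genes called higher, blue for lower and grey for those not called, and open where a sample was at the floor. Targets of both pathways lie on both sides of 0, with PROM1 lowest and SNAI2 highest, both drawn at values fitted against floored samples, which are limits.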

How the data were processed

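Total RNA from 3 WT and 3 p21-/- samples of HCT116 was counted with the NanoString PanCancer Progression Panel, and samples were grouped by their labels. The deposited values are a signal, barcode counts that the authors normalized in nSolver with positive control and housekeeping scaling, with low values replaced by a floor that matched, in each sample, the negative control mean plus 2 SD. The 6 positive and 8 negative control entries are raw counts and were left out of the tests. Above the floor, values under 500 were whole multiples of a factor per sample (tolerance 0.1 count, 100% of values), which gave the barcode counts. Since floored values carry no count, no count model was run. Replicate pairs differed by more than counting error (2.09 to 84.0, chi-square per degree of freedom).

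Log2(value + 1) of the lines was compared in R 4.3.3 with limma 3.58.1, two-sided, with an intensity trend and neither filter nor covariate. All 770 genes entered the Benjamini-Hochberg adjustment. The fit was also run on simulated data with the same spread in both lines and larger changes than most of the 11 genes showed. Spread differed between the lines in these samples, so that run does not test the calls made here. The study itself used NanoStringDiff on raw counts, which were not used here. The p-values measure the spread between harvests of these lines. Of the 11 genes, those above the floor in all samples of at least 1 line are given with all values. Of the pathway lists, at most 3 genes per list were picked by size of change among those called, not overlapping and with a mean of at least 50. EP300, SFRP1 and SFRP2 were named outside that rule. The members and lists were chosen with earlier results of these data known. The 11 symbols matched the RefSeq gene table, and 10 of them were searched in its promoter table. Counting intervals cover counting error only. Alternatives were other pseudocounts, scalings, floors, filters, variance models, the replicate number as a block and leaving out each sample. Same-numbered WT and p21-/- samples did not deviate together (correlations of 0.08, -0.05 and 0.05 over 446 genes).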

Additional observations from a re-analysis of the deposited data

How the results depend on the processing

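With 20 alternatives for each of the 9 genes above the floor, 167 of 180 results kept their direction and side of the threshold, 7 lost the call, 3 gained it and 3 reversed. The number of the 11 genes called higher was 5 and called lower 3. Scaling to the housekeeping candidates gave 3 higher and 6 lower, scaling to the positive controls 9 higher and 1 lower, and setting floored values to their upper limit 5 lower; these counts include WNT5B and TCF4, which hold only floor values that such scalings move apart. Leaving out each sample in turn gave 5 to 6 higher and 3 lower. The replicate number as a block gave 5 higher and 3 lower, and for JAG1 a log2 fold change of -1.92, but same-numbered samples of the lines share only a number. The log2 fold change of CTNNB1 reversed to -0.21 with the housekeeping candidates. With the positive controls those of DLL4 (0.26), TCF20 (0.67), RHOA (0.71), ADAM17 (0.28), EGFL7 (0.48), RBPJ (0.48) and EP300 (0.83) reversed, and EP300 was at 0.046 under median scaling and 0.0050 under quantile normalization. Median scaling and the housekeeping candidates multiply all genes of a sample by 1 factor. The positive controls do so for values above the floor, which all the reversed genes had in every sample. Such a factor accounts for the reversals under these scalings by construction. Quantile normalization applies no such factor, and the cause of the reversal of EP300 there was not tested. Over all 770 genes, 45.7% of calls were higher as the authors scaled them, 53.4% by the trimmed mean of M values, 58.0% with quantile normalization, 59.8% after median scaling, 15.5% with the housekeeping candidates and 91.0% with the positive controls. A weight per line, chosen after seeing the data, changed no count of calls among the 11 genes. The floor, not counting error, limits WNT5A in WT cells and WNT5B and TCF4 in both lines, and DLL4 lost its call at log2 fold changes of -0.70 under quantile normalization (adjusted p = 0.0535), -1.49 with the floor subtracted (0.0705) and -0.72 in an ordinary linear model (0.145).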
